A study of Mus musculus with 576 samples.

Results

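The 10 genes Fos, Fosb, Jun, Junb, Egr1, Ier2, Atf3, Dusp1, Hspa1a and Hspa1b, comprising 8 immediate early genes and 2 heat shock genes, were followed. They were chosen by symbol, and all 10 of them were among the 36658 gene identifiers of each of the 3 count tables. The tables held 576 single cells by Smart-seq2, which reads full-length transcripts without molecular identifiers, in 3 mouse lines. All cells were GFP+ cells of the dorsal pancreas at embryonic day 12.5. Each line filled 2 plates of 96 wells, called A and B here. In Nkx2.5-Cre;mTmG (the Nkx2.5 line) and Nkx3.2-Cre;mTmG (the Nkx3.2 line), Cre switches a membrane reporter from tdTomato to GFP for good, so GFP also marks descendants that have stopped making Cre. In Prox1-GFP (the Prox1 line), GFP reports Prox1, a factor of the early pancreatic epithelium. All lines were kept on a C57BL/6J background, went through a short warm collagenase digestion and were sorted into lysis buffer in the cold. No undissociated tissue is among these samples, so expression in the embryo and induction during dissociation cannot be told apart.

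Immediate early genes are switched on within minutes of a stimulus and without new protein synthesis, through regulators such as serum response factor, ETS-family factors and CREB that already sit in the cell. Many of them encode transcription factors. FOS-family and JUN-family proteins pair to form AP-1, EGR1 is a zinc finger factor, and ATF3 is induced by stress. Others, such as the phosphatase DUSP1, act back on the kinases that induced them. The inducible chaperones HSPA1A and HSPA1B are instead switched on by heat shock factor when proteins unfold. Both groups are known to respond to enzymatic tissue dissociation, which is why they are read as a sign of what cells went through before lysis.

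After filtering, 549 cells were kept. These were 90 and 83 on plates A and B of the Nkx2.5 line, 95 and 96 for Nkx3.2, and 93 and 92 for Prox1, with a median of 1056674, 896115 and 808006 estimated counts per cell by line. No embryo, litter or day is given for a plate, so each line is 1 sample, and no test between lines was possible. Levels are CPM, the counts of a gene summed over cells and scaled to 1000000 counts of those cells. Intervals are 95%, and they cover counting error only, so the spread between the 2 plates of a line is the better guide to error. Line and library batch cannot be told apart, because the lines have separate plates and library numbers. Clusters built without the genes described here gave 87 epithelial-like and 19 endocrine-like cells, all of the Prox1 line. The mesenchymal-like cells numbered 87 and 81 on plates A and B of the Nkx2.5 line, 92 and 77 for Nkx3.2, and 33 and 44 for Prox1. The 29 mesothelial-like cells were split 5, 22 and 2 by line. Epithelial-like cells were led by Spp1 and Vtn, endocrine-like cells by Gcg, Pyy and Chgb, and mesothelial-like cells by Upk3b, Upk1b and Muc16. The 2 mesothelial-like cells of the Prox1 line were left out of the class comparisons.

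Promoters are shown for Fos, Fosb and Junb, which differed widely between lines, and for Dusp1 and Hspa1a, which did not share their pattern. RefSeq promoters of 300 bases on GRCm38.p6, 250 before and 50 after the start, were used for 8 of the 10 genes, without Egr1 and Ier2. Capitals mark TGACG (the core of the cyclic AMP response element, CRE) on either strand, the full CRE TGACGTCA, the TATA box TATAAA, or 2 facing heat shock units, GAANNTTC or TTCNNGAA. The core lies within the full element.
Fos, chr12:85473640-85473939, plus strand: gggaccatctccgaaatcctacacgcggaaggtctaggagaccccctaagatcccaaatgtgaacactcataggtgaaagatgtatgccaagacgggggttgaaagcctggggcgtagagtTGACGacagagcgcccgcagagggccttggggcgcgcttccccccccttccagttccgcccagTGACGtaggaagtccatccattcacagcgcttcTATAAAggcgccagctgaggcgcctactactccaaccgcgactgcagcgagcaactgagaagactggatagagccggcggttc
Fosb, chr7:19309996-19310295, minus strand: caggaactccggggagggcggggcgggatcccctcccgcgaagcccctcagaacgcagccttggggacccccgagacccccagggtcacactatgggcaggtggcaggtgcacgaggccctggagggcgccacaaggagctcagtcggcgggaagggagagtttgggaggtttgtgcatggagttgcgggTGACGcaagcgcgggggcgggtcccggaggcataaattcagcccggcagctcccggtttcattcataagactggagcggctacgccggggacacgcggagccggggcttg
Junb, chr8:84978699-84978998, minus strand: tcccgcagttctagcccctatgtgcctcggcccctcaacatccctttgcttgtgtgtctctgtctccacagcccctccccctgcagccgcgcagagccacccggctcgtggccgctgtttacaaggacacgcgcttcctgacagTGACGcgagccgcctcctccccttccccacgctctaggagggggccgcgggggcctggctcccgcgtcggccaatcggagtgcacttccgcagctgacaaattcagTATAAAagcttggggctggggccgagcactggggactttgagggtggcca
Dusp1, chr17:26508423-26508722, minus strand: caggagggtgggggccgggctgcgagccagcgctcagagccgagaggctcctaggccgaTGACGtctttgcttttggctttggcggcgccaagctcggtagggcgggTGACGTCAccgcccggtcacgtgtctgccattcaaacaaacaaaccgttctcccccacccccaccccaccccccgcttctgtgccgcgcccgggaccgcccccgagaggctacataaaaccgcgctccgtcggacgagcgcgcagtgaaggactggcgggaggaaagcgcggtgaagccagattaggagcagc
Hspa1a, chr17:34972107-34972406, minus strand: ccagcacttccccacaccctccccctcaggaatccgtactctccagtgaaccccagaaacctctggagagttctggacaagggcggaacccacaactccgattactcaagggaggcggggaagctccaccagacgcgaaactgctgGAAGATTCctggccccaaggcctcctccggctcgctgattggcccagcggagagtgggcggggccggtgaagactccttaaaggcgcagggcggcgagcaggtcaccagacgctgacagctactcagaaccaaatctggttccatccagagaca

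Counting from 0 at the annotated start, Fos held TGACG from -129 and -66 and a TATA box from -33. Fosb held TGACG from -60 and Junb from -106, while the Junb TATA letters began at the annotated start itself. Atf3 held TGACG on the other strand, read as CGTCA from -7. Dusp1 held the full CRE from -143 and a further TGACG from -191. TGACG was in 20.8% of 32851 promoters of this length, the full CRE in 1.79%, and the TATA box in 13.6%. The heat shock pair, in 15.1% of them, stood at -104 in Hspa1a and Hspa1b and at -128 in Jun. The CArG box, the element bound by serum response factor, was in 1.63% of promoters and in none of the 8 windows. TGANTCA, the only form of the AP-1 site searched, was in 7.81% and likewise in none of the 8. Bases outside these windows, and the promoters of Egr1 and Ier2, were not searched, so neither absence extends to them. Hspa1a and Hspa1b differed at 4 of 300 bases.

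Fos, which encodes an AP-1 subunit that growth signals induce, was far higher in the Prox1 line than in both Nkx lines. Compared within mesenchymal-like cells, which every line held, it stood at 121.5 and 15.1 CPM in Nkx2.5 plates A and B, at 42.1 and 36.96 in the Nkx3.2 plates, and at 593 and 666 in the Prox1 plates. Both Prox1 plates were above the 4 other plates. Over the plates together the Prox1 level was 15.9 times that of the Nkx3.2 line (interval 15.5 to 16.3, with 14.1 to 18.01 over the 4 pairs of plates). It was 9.06 times that of the Nkx2.5 line, where the pairs of plates ran from 4.88 to 44.2. The share of mesenchymal-like cells with a Fos count was 32.7% for Nkx2.5, 34.3% for Nkx3.2 and 88.3% for Prox1. Cells that had Fos also had more of it in the Prox1 line, with a median of 561 CPM against 151.9 and 89.97.

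Fosb, a close relative of Fos, was scarcer and moved the same way. Mesenchymal-like cells held 14.2 and 0.0969 CPM in the Nkx2.5 plates, 2.40 and 3.80 in the Nkx3.2 plates, and 44.6 and 59.4 in the Prox1 plates. The ratio of the Prox1 line was 18.1 to the Nkx3.2 line (11.7 to 24.8 over pairs of plates) and 7.24 to the Nkx2.5 line (3.15 to 613). The Nkx levels came from few cells. The highest 5% of mesenchymal-like cells held 90.03% of their Fosb counts for Nkx2.5 and 97.5% for Nkx3.2, against 34.1% for Prox1.

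Egr1 and Junb completed the set that was low in the Nkx lines and high in the Prox1 line. Egr1, the zinc finger factor, stood at 76.5 and 18.01 CPM in mesenchymal-like cells of the Nkx2.5 plates, 53.8 and 16.4 in the Nkx3.2 plates, and 229 and 237 in the Prox1 plates. Its ratio was 5.99 to the Nkx3.2 line (4.26 to 14.4 over pairs of plates) and 4.84 to the Nkx2.5 line (2.999 to 13.1). A single Nkx3.2 cell reached 2778 CPM, while the median Nkx3.2 cell with any Egr1 held 13.8. This cell, on plate A, held 94.3% of the 2953 Egr1 counts of the G2/M cells there, where all mesenchymal-like cells of the line held 5911. It therefore raised the Nkx3.2 level and lowered the ratio of the Prox1 line to it. Junb, an AP-1 partner of the FOS proteins, stood at 18.2 and 1.76 CPM, 17.7 and 14.5, and 75.2 and 66.3 in the same order of plates. Its ratios were 4.26 (3.75 to 5.18) and 6.81 (3.65 to 42.8). For both genes the Prox1 plates did not overlap the others.

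Jun and Ier2 were present in most cells of every line, so that they differed in level more than in presence. Jun, the main partner of FOS, was found in 73.8%, 86.4% and 93.5% of the Nkx2.5, Nkx3.2 and Prox1 mesenchymal-like cells. Its level was 242, 228 and 451 CPM, and the Prox1 level was 1.98 times that of the Nkx3.2 line and 1.87 times that of the Nkx2.5 line. Ier2 (chr8:84661331-84662852), a short nuclear early-response gene, stood at 166.8, 117.8 and 308 CPM. The Prox1 ratio was 2.61 to the Nkx3.2 line and 1.85 to the Nkx2.5 line.

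Dusp1, the phosphatase that switches off MAP kinases, was high in the Nkx2.5 line too. In mesenchymal-like cells it stood at 166.7 and 130.1 CPM in the Nkx2.5 plates, 52.97 and 62.8 in the Nkx3.2 plates, and 147.96 and 223 in the Prox1 plates, so that the Prox1 and Nkx2.5 plates overlapped. It was found in 49.4%, 57.99% and 68.8% of the Nkx2.5, Nkx3.2 and Prox1 mesenchymal-like cells. The Prox1 ratio was 3.40 to the Nkx3.2 line (2.36 to 4.22 over pairs of plates) and 1.29 to the Nkx2.5 line (0.888 to 1.72). Dusp1 was also the only member past 2-fold between the Nkx lines, where its Nkx3.2 level was 0.381 of the Nkx2.5 level. Atf3, the stress-induced factor, was found in 1, 3 and 4 Nkx2.5, Nkx3.2 and Prox1 cells, and stayed at or below 1.30 CPM in each line.

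**Figure D1:**
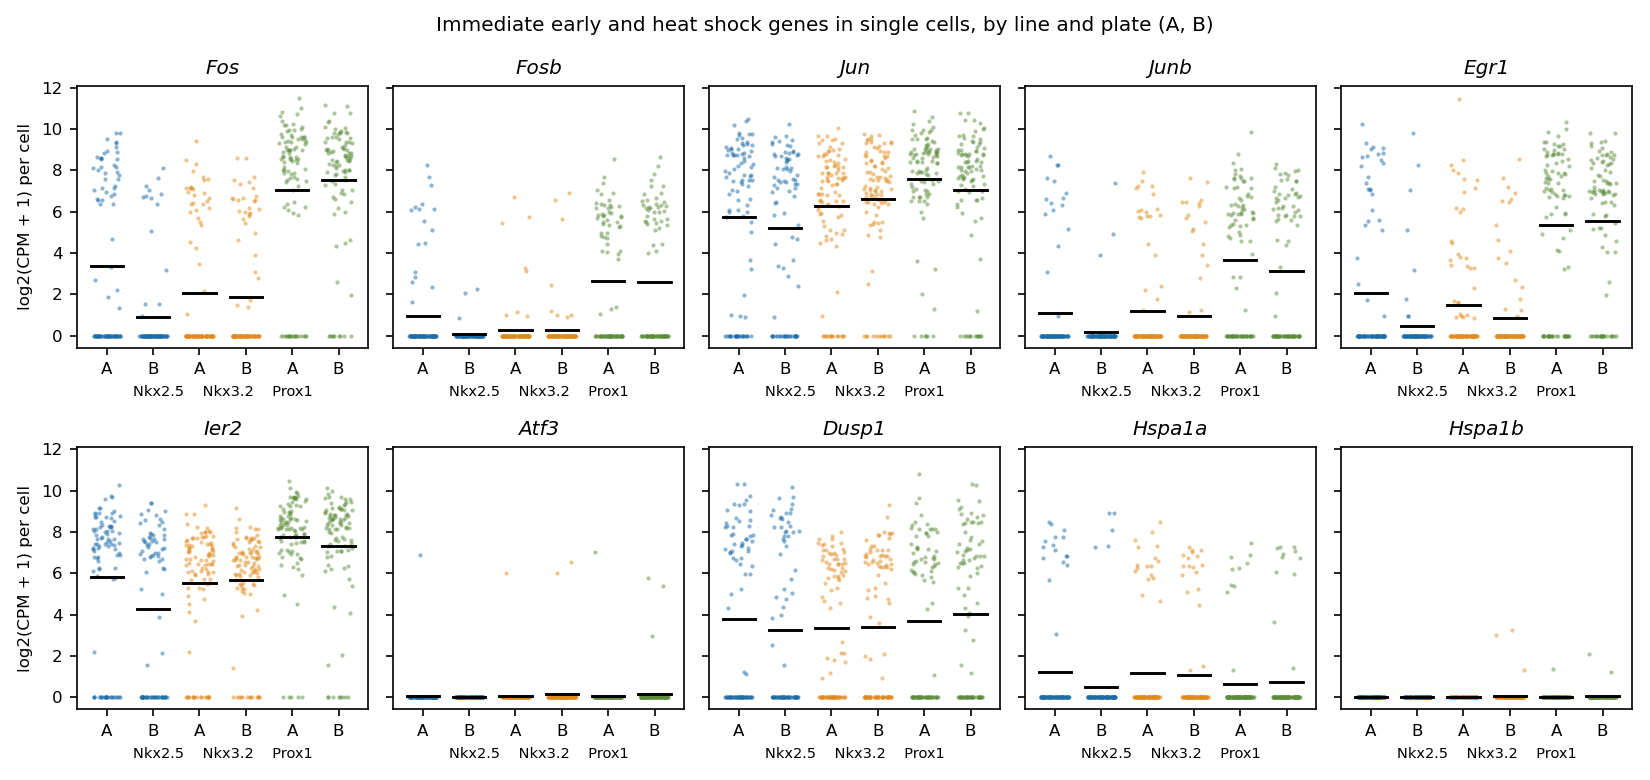
Each point is 1 of the 549 cells, with log2(CPM + 1) on the vertical axis and the plates A and B of each line on the horizontal axis. Black bars are means over cells. Cells without a count lie at 0, and Fos, Fosb, Junb and Egr1 leave that floor in a far larger share of cells of both Prox1 plates, while Atf3 and Hspa1b stay there in nearly all cells.

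Across all genes reaching 10 CPM in mesenchymal-like cells of either line, a 2-fold difference was not common. Between the Prox1 and Nkx3.2 lines 6 of the 10 genes were past 2-fold higher and 0 past 2-fold lower, where 4.09% of 10127 tested genes were higher and 4.76% lower. Between the Prox1 and Nkx2.5 lines 4 were higher and 0 lower, beside 4.49% and 4.01% of all tested genes. Between the Nkx3.2 and Nkx2.5 lines 0 were higher and 1 was lower, beside 5.71% and 4.29%. Both Prox1 plates lay above the other 4 plates for 6 of the 10 genes and below them for 0, where 9.14% of tested genes lay above and 8.54% below. Atf3 and Hspa1b did not reach 10 CPM in any of these groups, and Fosb did not in the Nkx3.2 to Nkx2.5 comparison.

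The mesenchymal-like cells of the 3 lines were spread unevenly over clusters. A cluster led by Pcdhb10 and Nrg1 held 62 Nkx2.5, 4 Nkx3.2 and 5 Prox1 cells, and an Acta2- and Tagln-rich cluster 2, 33 and 6. The summed level was therefore also compared within clusters. In the 5 mesenchymal-like clusters with at least 5 cells of both the Prox1 and Nkx3.2 lines, the summed level of the 8 immediate early genes was higher in the Prox1 line in 5 of 5, by 3.31 to 4.18 times. Against the Nkx2.5 line it was higher in 4 of 4 clusters, by 1.49 to 3.40 times. Fos was higher in 5 of 5 and 4 of 4 of these clusters, with a lowest ratio of 8.94 and 5.23. Not every member did the same: against the Nkx2.5 line Jun was higher in 3 of 4 clusters (0.918 to 2.44 times) and Dusp1 in 2 of 4 (0.349 to 2.32 times). In the proliferating cluster, led by Neil3 and histone genes, the sum was 524, 434 and 1781 CPM for Nkx2.5, Nkx3.2 and Prox1. In the Acta2- and Tagln-rich cluster it was 772 in the Nkx3.2 line and 2615 in 6 Prox1 cells. The cluster led by Stmn2 and Ecel1 stood at 749 CPM in 8 Nkx3.2 cells and 2868 CPM in 16 Prox1 cells, and held 0 Nkx2.5 cells. Its leading genes included the neuron-type genes Gabrb1, Gabra5 and Gria2. It was named mesenchymal-like from its marker score alone, 0.614 with the next class at 0.0357.

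Counted per cell, the genes were also detected together more often in the Prox1 line. At least 5 of the 8 immediate early genes were detected in 11.6% of Nkx2.5 cells (exact binomial interval 7.21 to 17.3), 12.04% of Nkx3.2 cells (7.79 to 17.5) and 65.9% of Prox1 cells (58.6 to 72.7). On plates A and B these were 18 of 90 and 2 of 83 cells for Nkx2.5, 11 of 95 and 12 of 96 for Nkx3.2, and 60 of 93 and 62 of 92 for Prox1. The median cell held 3, 3 and 5 of the 8. None of the 8 was found in 12 Nkx2.5 cells, 1 Nkx3.2 cell and 1 Prox1 cell. With every cell thinned to 100000 counts the shares were 9.83%, 9.95% and 59.5%. The median mitochondrial share of counts was 4.14%, 3.58% and 3.19%.

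**Figure D2:**
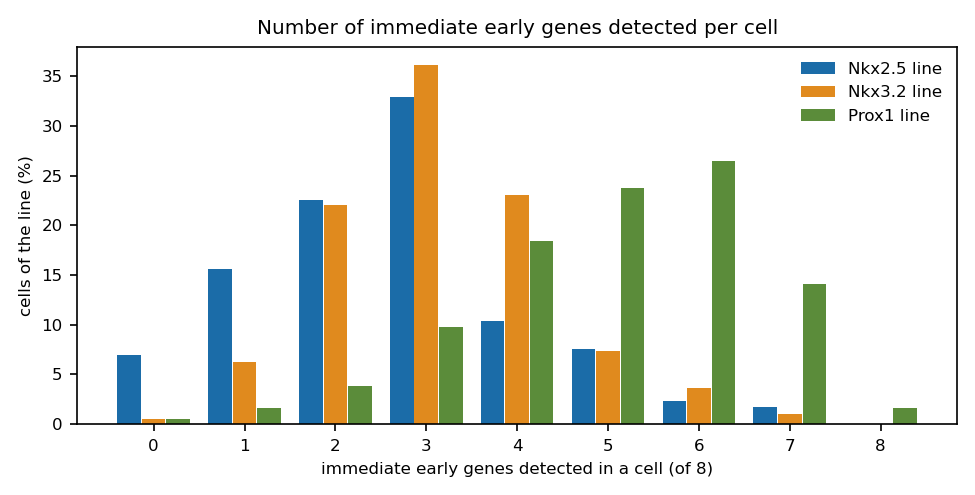
The horizontal axis gives how many of the 8 immediate early genes had at least 1 estimated count in a cell, and bars give the percentage of the passing cells of each line. Both Nkx lines peak at 3 genes, and the Prox1 line peaks at 6.

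**Figure D3:**
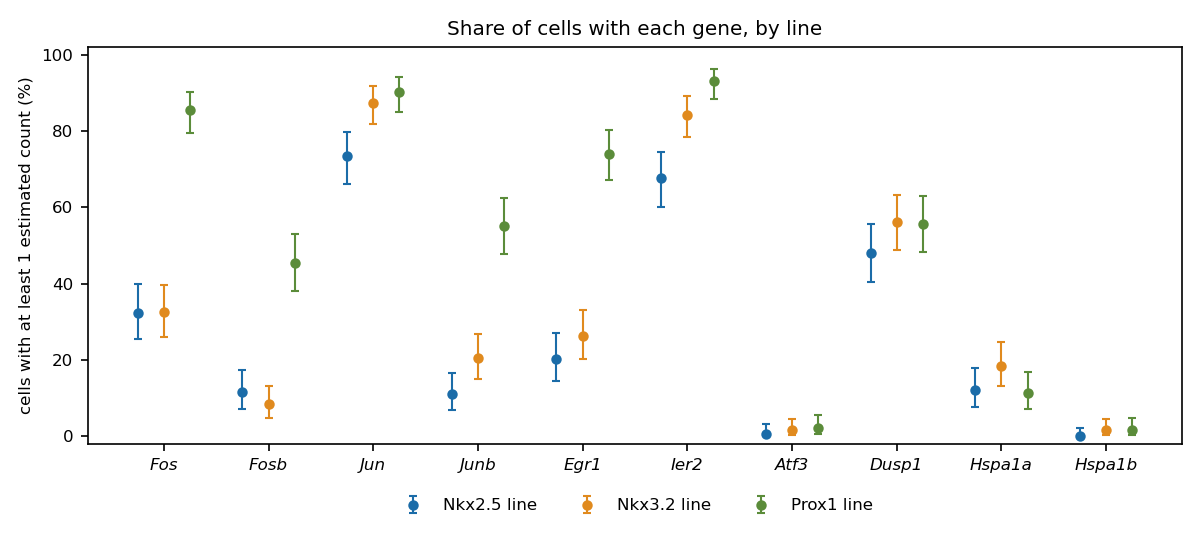
Points give the percentage of passing cells of each line with at least 1 estimated count of each gene, and bars the exact 95% binomial interval. Fos rises from 32.4% and 32.5% in both Nkx lines to 85.4% in the Prox1 line, Egr1 from 20.2% and 26.2% to 74.1%, while Dusp1 stays between 47.98% and 56.02%.

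The heat shock pair behaved differently. Hspa1a and Hspa1b lie next to each other (chr17:34969190-34972156 and chr17:34956436-34959238), and 63.8% of the 31-base words of the Hspa1a transcript also occur in Hspa1b, so reads cannot be fully assigned to either gene and their sum is the safer value. Of the values above 0, 32.5% were not whole for Hspa1a and 50% for Hspa1b. In mesenchymal-like cells the sum stood at 24.1 and 16.01 CPM in the Nkx2.5 plates, 20.99 and 13.9 in the Nkx3.2 plates, and 19.5 and 23.3 in the Prox1 plates. The plates of all 3 lines overlapped. The ratio was 1.20 for the Prox1 to the Nkx3.2 line, 1.08 for the Prox1 to the Nkx2.5 line and 0.901 for the Nkx3.2 to the Nkx2.5 line, all inside the spread between plates. Nearly all of it was assigned to Hspa1a. Hspa1b was found in 0, 3 and 3 Nkx2.5, Nkx3.2 and Prox1 cells.

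The pair was confined to few cells, which held it at a substantial level. Hspa1a was found in 12.5%, 17.8% and 23.4% of Nkx2.5, Nkx3.2 and Prox1 mesenchymal-like cells. Over all cells of a line the shares were 12.1%, 18.3% and 11.4%, and the highest 5% of cells held 65.8%, 54.5% and 69.1% of its counts. Among cells with a count the median was 158.4, 80.5 and 87.9 CPM. It was found in every mesenchymal-like cluster of the Prox1 line except the one of which that line held 1 cell, and was highest in the Acta2- and Tagln-rich cluster, at 55.6 CPM in the Nkx3.2 line and 72.3 CPM in the Prox1 line.

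Epithelial-like cells of the Prox1 line kept the immediate early genes but had almost no heat shock pair. Compared with mesenchymal-like cells of the same plates, the summed immediate early level was 1472 against 1947 CPM, a ratio of 0.756 (0.896 in plate A and 0.644 in plate B). The members were split. Ier2 was higher in epithelial-like cells, at 429 against 308 CPM, and was found in 87 of 87 of them. Fos stood at 349 against 636 CPM and Egr1 at 166.2 against 234. Jun, at 390 against 451, was at 426.8 against 423 on plate A and at 346 against 471 on plate B. Fosb, at 18.9 against 53.4 CPM, and Dusp1, at 64.3 against 192.99, were past 2-fold lower. Junb was spread wider in the epithelial-like cells, in 68.97% against 41.6% of cells, with a lower level, 53.1 against 69.9 CPM. The sum of Hspa1a and Hspa1b was 1.19 against 21.8 CPM, a ratio of 0.0544. It rested on 2 of 87 epithelial-like cells, which were both on plate A, and on plate B the sum was 0 against 23.3 CPM. Over the 10 genes 0 were past 2-fold higher and 3 past 2-fold lower, beside 14.7% and 13.5% of 10807 tested genes.

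Endocrine-like cells, all 19 of them in the Prox1 line, held less Jun, Ier2 and Egr1 than epithelial-like cells. Jun stood at 78.1 against 390 CPM and Ier2 at 54.1 against 429, and both were lower on each plate. Egr1 was also lower on each, at 162.6 against 193.4 CPM on plate A and 68.5 against 134.7 on plate B. Fos stood at 492 against 373 CPM on plate A and at 207 against 322 on plate B, so its direction differed between plates. The direction of Fosb, Junb and Dusp1 differed in the same way, with Fosb at 24.99 against 18.8 and 8.08 against 18.9, Junb at 67.97 against 57.6 and 36.5 against 47.8, and Dusp1 at 106.3 against 68.8 and 40.95 against 58.99 CPM. The plates of these cells differed widely in the sum of the 8 genes, with 1041 CPM in 9 cells of plate A and 452 in 10 cells of plate B.

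**Figure D4:**
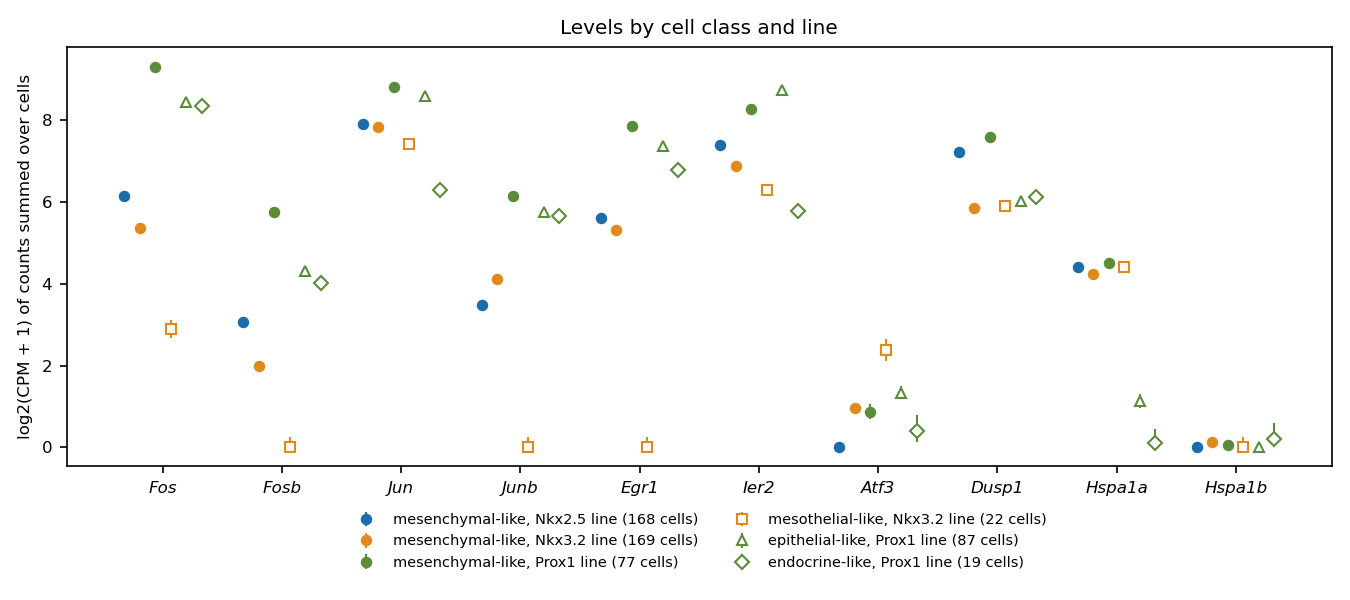
Points give log2(CPM + 1) for each class of each line, with 95% Poisson intervals that cover counting error only and are mostly hidden by the points. Filled circles are mesenchymal-like cells, and open symbols other classes. Egr1, Fosb and Junb are at 0 in the 22 mesothelial-like cells of the Nkx3.2 line, and Hspa1a is near 0 in both epithelial-like and endocrine-like cells.

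Mesothelial-like cells, which line the organ surface, had the lowest summed immediate early level of the classes in the Nkx lines. The sum was 318 CPM in the Nkx3.2 line and 135.6 CPM in the 5 such cells of the Nkx2.5 line. Not every member was lowest there: endocrine-like cells held less Jun and Ier2, at 78.1 and 54.1 CPM, than the Nkx3.2 mesothelial-like cells. In the 22 such cells of the Nkx3.2 line Egr1, Fosb and Junb each had 0 counts, where 39.04, 2.95 and 16.4 CPM were found in mesenchymal-like cells of the line. Of these 22 cells 19 were on plate B, where mesenchymal-like cells held 16.4 CPM of Egr1 and 14.5 of Junb, against 53.8 and 17.7 on plate A. Fos stood at 6.47 against 40.05 CPM. Jun, at 171.03 against 228 CPM, Ier2, at 77.7 against 117.8, Dusp1, at 58.5 against 56.8, and Hspa1a, at 20.5 against 18.1, were within 2-fold. Of the 10 genes 0 were past 2-fold higher and 3 (Fos, Junb and Egr1) lower at 10 CPM or more in either class, beside 12.3% and 12.2% of 10603 tested genes.

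Within the Nkx2.5 line the plates themselves differed. In mesenchymal-like cells, plate A was 8.07 times plate B for Fos, 4.24 times for Egr1, 10.3 times for Junb and 146.06 times for Fosb, which was found in 3 cells of plate B. Jun, Ier2 and Dusp1 differed by 1.30, 1.57 and 1.28 times and Hspa1a by 1.503. Among the 10 genes 4 were past 2-fold higher and 0 lower, beside 7.43% and 4.45% of 10117 tested genes. At least 5 of the 8 genes were detected in 20% of plate A cells and 2.41% of plate B cells. Median depth, at 1057545 and 1033095 counts, and the median mitochondrial share, at 4.12% and 4.20%, were close. The median number of genes per cell was 5972 on plate A and 5365 on plate B, and 90 and 83 of 96 wells passed the filters. The part of either in the difference was not tested. Mesenchymal-like cells were 87 of 90 and 81 of 83 cells. With Nkx2.5 plate A left out, the ratio of the summed immediate early level between the Nkx3.2 and Nkx2.5 lines was 0.997 rather than 0.724. The sum stood at 504 and 500.1 CPM on the Nkx3.2 plates and at 1781 and 2059 CPM on the Prox1 plates. Egr1 differed between the Nkx3.2 plates, but that difference leaned on 1 cell. Of the 4932 Egr1 counts of mesenchymal-like cells on plate A, 2953 were in G2/M cells, and 1 of these cells held 94.3% of them.

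The level also differed between cell cycle phases, which are calls from the expression of 43 S-phase and 54 G2/M genes alone. In mesenchymal-like cells the summed immediate early level in G1 and in G2/M was 845 and 439.9 CPM for Nkx2.5, 534 and 465 for Nkx3.2, and 2327 and 1558 for Prox1. In the Prox1 line 27 of 36 G1 cells, 17 of 21 S cells and 8 of 20 G2/M cells held at least 5 of the 8 genes. In the same order of phases the shares were 11.6%, 12.5% and 11.8% for Nkx2.5 mesenchymal-like cells, 13.9%, 16.1% and 8.82% for Nkx3.2 mesenchymal-like cells, and 63.6%, 73.9% and 74.2% for Prox1 epithelial-like cells, so G2/M was not lowest in every case. Plate by plate, G1 stood above G2/M on both Nkx2.5 plates (1067 against 529 and 568 against 354 CPM). The same held on both Prox1 plates (2034 against 862 and 2634 against 1833) and on Nkx3.2 plate B (588 against 369). Nkx3.2 plate A stood at 503 against 543, but 1 of its 16 G2/M cells held 53.2% of their counts of these genes. The median cell of that plate stood at 443.4 CPM in G1 and 249.9 in G2/M. With plates pooled the lowest Prox1 phase, at 1558 CPM, was above the highest of the Nkx lines, but the 6 G2/M cells of Prox1 plate A, at 862, were below the G1 cells of Nkx2.5 plate A.

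Set per kilobase of exon, so that genes can be compared, the order of levels was as follows. In the Prox1 line the order differed by class. Its mesenchymal-like cells held Fos at 271 CPM per kilobase, Ier2 at 202, Jun at 141.6, Dusp1 at 58.3, Egr1 at 52.1, Junb at 30.4, Fosb at 8.56 and Hspa1a at 7.33. Its epithelial-like cells held Ier2 at 282, Fos at 148.5 and Jun at 122.2. In the Nkx2.5 line, nearly all mesenchymal-like cells, Ier2, at 106.4, was followed by Jun at 74.6, Dusp1 at 43.7, Fos at 29.01, Egr1 at 10.5, Hspa1a at 6.61 and Junb at 4.38. In the Nkx3.2 line Ier2 at 74.5 and Jun at 69.6 were not separated, since their plates overlapped, and neither were Dusp1 at 17.2 and Fos at 15.5, Egr1 at 7.76 and Junb, or Junb at 6.37 and Hspa1a at 6.18. By the same rule Jun and Dusp1 were the only neighbours separated in the Nkx2.5 line, where Fos was at 50.1 and 6.23 CPM per kilobase on plates A and B and Dusp1 at 48.8 and 38.2. On both Prox1 plates Fos was above Ier2 in mesenchymal-like cells, at 252 and 283 against 176.1 and 220.01, and below it in epithelial-like cells, at 158.6 and 136.7 against 299.8 and 261. In the Prox1 mesenchymal-like cells Dusp1 and Egr1 were not separated, at 44.7 and 67.5 against 51.1 and 52.8, nor were Fosb and Hspa1a, at 7.14 and 9.52 against 6.56 and 7.85.

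A wider set of 77 genes in 5 groups, namely other immediate early transcription factors, early signalling and decay genes, other chaperones, stress response genes and upstream regulators, was read beside the members. Of the 52 with at least 10 CPM, 6 (11.5%) were past 2-fold higher and 4 (7.69%) lower in the Prox1 than in the Nkx3.2 line, beside 4.09% and 4.76% of all tested genes, with a median ratio of 1.06 beside 1.01. Those with the highest ratios were the zinc finger factor Klf4 (25.2 against 5.48 CPM), the heat shock factor Hsf2 (122.1 against 46.9) and the antiproliferative gene Btg2 (22.8 against 9.41). Those with the lowest were the growth arrest gene Gadd45g (10.1 against 38.4), the co-chaperone Bag3 (17.1 against 43.3) and Ccn2 (8.77 against 22.2). Against the Nkx2.5 line 2 (3.85%) were higher, the cytokine signalling inhibitor Socs3 (71.99 against 27.7) and Btg2, and 3 (5.77%) lower, beside 4.49% and 4.01% of all tested genes, the lower ones being Gadd45g, Plk2 (159.9 against 460.1) and Fosl2 (10.1 against 24.6). Between the Nkx lines Per1 and Ccn2 (3.85%, beside 5.71% of all tested genes) were higher and 6 (11.5%, beside 4.29%) were lower in the Nkx3.2 line, with Klf4, Plk2 and Hsf2 the lowest.

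In epithelial-like against mesenchymal-like cells of the Prox1 line 10 of 54 (18.5%) of the wider set were past 2-fold higher and 9 (16.7%) lower, near the 14.7% and 13.5% of all tested genes. The kinase gene Plk2 (761 against 160 CPM), Errfi1 (148.7 against 40.7) and Myc (245 against 67.2) had the highest ratios, and Socs3 (6.80 against 71.99), Elk3 (10.3 against 61.1) and Klf4 (4.98 against 25.2) the lowest. The small chaperone Hspb1 was at 28.01 against 8.12 CPM, the opposite direction to Hspa1a, and was picked out after its values were seen. In mesothelial-like cells of the Nkx3.2 line, Hspb8 (111.6 against 6.01 CPM), Gadd45b (14.95 against 4.45) and Mafk (23.9 against 7.99) were highest in ratio, and Plk2 (10.1 against 146.3), Myc (7.12 against 92.1) and Elk3 (9.63 against 63.2) lowest, with 7 of 52 (13.5%) past 2-fold higher and 9 (17.3%) lower beside 12.3% and 12.2% of all tested genes. Between plates A and B of the Nkx2.5 line 6 of 51 (11.8%) were higher and 1 (1.96%) lower, beside 7.43% and 4.45%. Socs3 (42.999 against 11.2 CPM), Elk1 (17.7 against 5.35) and Ccn1 (299.6 against 105.8) had the highest ratios, and Plk2 (308 against 623) was the lower one.

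Among the 10698 genes found in at least 20% of cells, likeness to the members was measured as Spearman's rho over the cells of each plate, averaged over the 6 plates, a weak and sparse measure in which cells share depth and plate and the Prox1 plates mix cell classes. Only genes positive in all 6 plates were ranked, 352 for the immediate early genes and 215 for the heat shock pair. The positive sign on every plate was therefore fixed by this choice. With the mean log2(CPM + 1) of the 8 immediate early genes, Ccn1 stood first at 0.347 (0.246 to 0.438 over plates) and Zfp36, which speeds the decay of short-lived mRNAs, second at 0.227. Igf2, Tenm4, Uba7, Cd248, Epb41l2, Lrp1, Dusp6 and Ilk followed, between 0.218 and 0.185. Over mesenchymal-like cells alone Ccn1 stood at 0.332 and Zfp36 at 0.234, and the other 8 genes lay between 0.0612 and 0.190. With the heat shock pair the highest were Lrrn3, Igfbp3, Tpm1, Fam84a and Prrx1, between 0.206 and 0.183, and over mesenchymal-like cells alone these 5 lay between 0.134 and 0.205. Among the members, Fosb with Egr1 (0.293), Fos with Egr1 (0.288) and Junb with Ier2 (0.280) were the closest, while Hspa1a with Fos was at 0.0122. Of the members, Jun (0.169) and Dusp1 (0.145) were closest to Hspa1a, with a positive value in 6 of 6 plates each, but over mesenchymal-like cells alone Jun stood at 0.166 and Dusp1 at 0.0563.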

How the data were processed

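Single GFP+ cells were sequenced by Smart-seq2. Per the paper's methods and the submitters' notes, the authors trimmed reads with Trim Galore 0.6.5, quantified transcripts with kallisto on GRCm38 and summed them to genes. The deposited values are estimated counts per gene, not normalized. Reads shared by near-identical transcripts are split between them, which affects Hspa1a and Hspa1b. There are no molecular identifiers, so amplification copies count as reads and intervals are too narrow.

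Cells needed 1000 detected genes, 100000 counts and a mitochondrial share of no more than 30% to be kept. Cells were clustered with Seurat 5.3.0 in R 4.3.3 (resolution 1.9), leaving out the genes described here and the wider lists, and clusters were named from marker genes. The naming thresholds (score of at least 0.5, margin of 0.2, at least 3 markers) were set after the clusters were seen. Doublets were not called. Levels are CPM of summed counts with exact Poisson intervals, shares have exact Clopper-Pearson intervals, and ratios have exact conditional binomial intervals (Python 3.11.15, pandas 2.3.3, scipy 1.17.1). Detection means at least 1 estimated count. The ratio and correlation code was tested on simulated data. A gene was counted as past 2-fold where it reached 10 CPM in either group. Motifs were searched on both strands. Named genes were all members, up to 3 wider-list genes per direction and comparison, and the 10 and 5 genes most like the members. The members and lists were chosen with earlier results of these data known. IDs without a symbol held 0.589% of counts. Alternatives covered the cell filter, plates, weighting of cells, highest cells, cluster resolution, detection limit and thinning.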

Additional observations from a re-analysis of the deposited data

Results flagged for a closer look

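In the 27 cells that failed the filters and entered no comparison, a few members still had counts above a floor set at 3 counts. In the 19 failing cells of the Nkx2.5 line, which held 155890 counts in all, Ier2 had 13 counts and Jun 5, which made 18 for the 8 immediate early genes. The 7 failing cells of the Prox1 line held 103011 counts, of which 1 fell on these 8 genes, against 1568 CPM in the passing cells of the line.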

How the results depend on the processing

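Without plate A of each line the share of cells with at least 5 of the 8 immediate early genes was 2.41% in the Nkx2.5 line, and without plate B 20%; every other planned or added setting kept the shares of the 3 lines inside their intervals. Ratios of summed levels are given in the order no filter, stricter filter, without plate A, without plate B, mean of single-cell CPM and without the highest 5% of cells. For the immediate early genes in epithelial-like against mesenchymal-like cells (0.756) they were 0.729, 0.584, 0.644, 0.896 and 0.784, and without the highest cells the value stayed inside its interval. The stricter filter changed the clusters, with 62 epithelial-like cells. For Hspa1a and Hspa1b (0.0544) the changed values were 0.0243 under the stricter filter, 0 without plate A, 0.113 without plate B, 0.0851 by mean and 0 without the highest cells. For the Nkx3.2 to Nkx2.5 ratio of the immediate early genes (0.724) they were 0.993 without plate A, 0.578 without plate B, 0.702 by mean and 0.997 without plate A of the Nkx2.5 line alone. For the heat shock pair (0.901) the mean gave 0.706, and the direction turned to 1.19 without the highest cells and to 1.14 without plate A of the Nkx2.5 line; the cause was not tested. The Prox1 to Nkx3.2 ratio (3.88), chosen after seeing the data like the next, was 4.12 without plate A, 3.54 without plate B, 3.93 by mean and 4.05 without the highest cells. The Prox1 to Nkx2.5 ratio (2.81) was 4.09, 2.05, 2.76 and 2.95, and 3.87 without plate A of the Nkx2.5 line. Clusters at resolution 1.0 changed none of these ratios, but joined mesothelial-like and endocrine-like cells in 1 unnamed cluster of 48 cells, so results for both classes rest on resolution 1.9. For single genes, 11 of 36 ratios moved by over 1.5 times without plate A and 8 of 33 without plate B. Of these 36 and 33 ratios, 32 and 28 kept their side of 1, that is, their direction, and the rest did not. Without the highest 5% of cells 10 of 32 moved so far and 31 kept their side, and without plate A of the Nkx2.5 line 8 of 16 moved and 11 kept it. No paired analysis was possible because plates of different lines share only a letter and each line is 1 sample. Atf3 and Hspa1b were too scarce at this depth for any comparison.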
